A study of Mus musculus with 6 samples.

Results

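Genes of low-oxygen signalling and glucose use were examined in HEI-OC1, a conditionally immortalised line from the mouse organ of Corti whose label calls it a cochlear stem cell. The 10 genes are Hif1a, Egln1, Egln3, Adm, Ndrg1, Ddit4, Bnip3, Slc2a1, Ldha and Pdk1, chosen by symbol as 10 of the 30438 symbols in the count table. The choice was made with their differences between the groups already known, as genes that moved in both directions, so those differences are given here as a description. Poly(A)-selected RNA was sequenced from 3 libraries of HEI-OC1 labelled Nrf2 knockout and 3 of wild-type HEI-OC1, called control here. Nrf2 is the antioxidant transcription factor encoded by Nfe2l2, and the study asked which genes could bear on the cisplatin resistance of the knockout line. Every culture was kept at 33 °C in 10% CO2 with 10% serum. No drug and no low-oxygen treatment is recorded, and the sources used here give neither the edit nor the number of clones behind the knockout line.

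Hypoxia-inducible factor (HIF) is a pair of proteins, an oxygen-regulated alpha subunit such as the product of Hif1a and a stable beta subunit from Arnt. In oxygen, prolyl hydroxylases, among them the products of Egln1 and Egln3, mark the alpha subunit for destruction through VHL. When oxygen is low the alpha subunit persists, binds a short core sequence in DNA, and raises transcripts for glucose uptake, lactate production, mitochondrial turnover and vessel growth. Control of HIF is mainly at the protein, so the Hif1a transcript is not itself a measure of HIF activity. Most of these targets also answer to other inputs, for example Ddit4 to the ATF4 stress response and to glucocorticoids.

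Promoters are shown because the HIF core sequence is what the factor reads in its targets, and these genes lay on both sides of the comparison. RefSeq promoter windows (GRCm38.p6, 250 bases before to 50 after the start) were found for 9 of the 10 genes. The match was by symbol and failed for Ndrg1. Each of the 9 had at least 1 match, on either strand, to the HIF core (ACGTG, or the variant with a first base of G), against 43.8% of all 32851 windows, and 20.6% of all windows had 2 or more. There were 7 matches in the first of the Ldha windows, 5 in Bnip3, 3 in Hif1a, 2 in each of Adm, Ddit4, Slc2a1 and Egln1, and 1 in Egln3. Pdk1 had 2 in its first window and 0 in its second. A CACGTG hexamer, present in the Bnip3, Hif1a and Ldha windows and in 7.15% of all windows, counts as 2 overlapping matches. The antioxidant response core TGACNNNGC, to which NRF2 binds, was found on either strand in 12.4% of windows and in the Adm window among these 9. It starts 58 bases before the Adm start and overlaps the second capital match of the Adm stretch. The 150 bases before the start of 5 genes follow, 2 that were higher, 2 that were lower and Ldha, with the window of most matches. Capitals mark the core matches on either strand, and all are read 5′ to 3′ on the strand of the gene. The second Pdk1 match spans the start and the second Ddit4 match lies farther upstream, so neither is in the stretch shown.
Adm (chr7:110627507-110627656, plus strand): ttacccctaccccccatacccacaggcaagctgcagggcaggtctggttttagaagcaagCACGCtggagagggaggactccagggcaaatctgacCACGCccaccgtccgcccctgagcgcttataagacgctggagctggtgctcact
Pdk1 (chr2:71873074-71873223, plus strand): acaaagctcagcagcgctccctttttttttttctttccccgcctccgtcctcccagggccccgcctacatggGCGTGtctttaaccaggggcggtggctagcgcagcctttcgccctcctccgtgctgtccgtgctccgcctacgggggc
Slc2a1 (chr4:119108595-119108744, plus strand): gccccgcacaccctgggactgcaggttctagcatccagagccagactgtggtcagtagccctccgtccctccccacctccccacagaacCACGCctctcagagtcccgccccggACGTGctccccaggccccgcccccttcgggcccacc
Ddit4 (chr10:59951771-59951920, minus strand): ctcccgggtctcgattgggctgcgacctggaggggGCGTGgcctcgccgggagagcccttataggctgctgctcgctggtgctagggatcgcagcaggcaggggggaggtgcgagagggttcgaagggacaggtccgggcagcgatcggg
Ldha (chr7:46845654-46845803, plus strand): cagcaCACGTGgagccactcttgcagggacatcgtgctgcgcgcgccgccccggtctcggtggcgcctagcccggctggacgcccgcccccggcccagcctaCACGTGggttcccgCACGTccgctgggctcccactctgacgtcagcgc
All 9 genes with a window carried the core sequence, so its presence could not separate genes higher and lower in the knockout-labelled libraries. Ndrg1, which was lower, had no window to read. A match is a description of the letters and not a measured binding site.

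The libraries held between 29130007 and 51285343 counts. Nfe2l2, the targeted gene, had higher RNA in the knockout-labelled libraries, at 396, 236 and 205 CPM, against 74.2, 126 and 96.7 CPM in the control. CPM are counts scaled to a common library size after TMM, a correction for library composition. The log2 fold change of Nfe2l2 was 1.49 (SE 0.33) with an adjusted p of 0.0456 by edgeR. Without the edit, the label alone does not say which way this RNA should move. Each direction given therefore compares knockout-labelled with control libraries. The Nfe2l2 call held without Nrf2 KO replicate 1 (log2 fold change 1.15) and was lost without any other single library, and with upper-quartile scaling or library size alone. Replicate 1 of each group stood apart: the first principal component (51.2% of variance) separated the groups, and the second (41.2%) set both replicate 1 libraries on the same side. The labels do not say that replicates were separate cultures, so the spread between them may be technical. Of 8 hair cell markers, Atoh1, Slc26a5 and Calb2 had 0 counts in all libraries, as did Sox2 and Pax2 of 10 supporting and prosensory markers. Other markers of these lists had counts, and Myo7a, Sox9, Gata3 and Fst were called higher. Myo7a and Fst kept their calls in all 6 fits with 1 library left out, and Sox9 in 4. Gata3 kept its call only without Nrf2 KO replicate 1. Whether reads of the markers listed at 0 were lost in alignment or counting was not tested.

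Across the 14618 genes with enough counts to test, edgeR's quasi-likelihood test called 8.28% at an adjusted p under 0.05 (4.83% higher, 3.45% lower). Of the 10 genes, 9 had enough counts, and 5 of those were called, 2 higher (Adm and Pdk1) and 3 lower (Ndrg1, Ddit4 and Slc2a1). Nothing is read from that count, since this contrast chose the genes. With the replicate number as a block the members' counts were again 2 higher and 3 lower, where 18.3% of all genes were called (10.4% higher, 7.92% lower). Without both replicate 1 libraries they were 3 higher and 5 lower, where 46.1% of all genes were called (24% higher, 22.1% lower). The groups did not overlap for those 5 and for Egln1, 6 of 9 in all, against 34.2% of all tested genes. The median log2 fold change of the 9 was -0.32, against 0.04 over all tested genes. Without Nrf2 KO replicate 1 both medians were close to 0, at -0.03 for the 9 and -0.02 for all tested genes. The calls rest on the libraries used: Adm kept its call in 4 of the 6 fits with 1 library left out and lost it without control replicate 2 or 3. Ndrg1, Ddit4, Slc2a1 and Pdk1 kept theirs only without Nrf2 KO replicate 1, losing it without any of the other 5 libraries. The share of all genes called was 30.2% without Nrf2 KO replicate 1, 2.53% and 2.56% without Nrf2 KO replicates 2 and 3, and 2.09%, 2.02% and 1.3% without control replicates 1, 2 and 3.

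**Figure D1:**
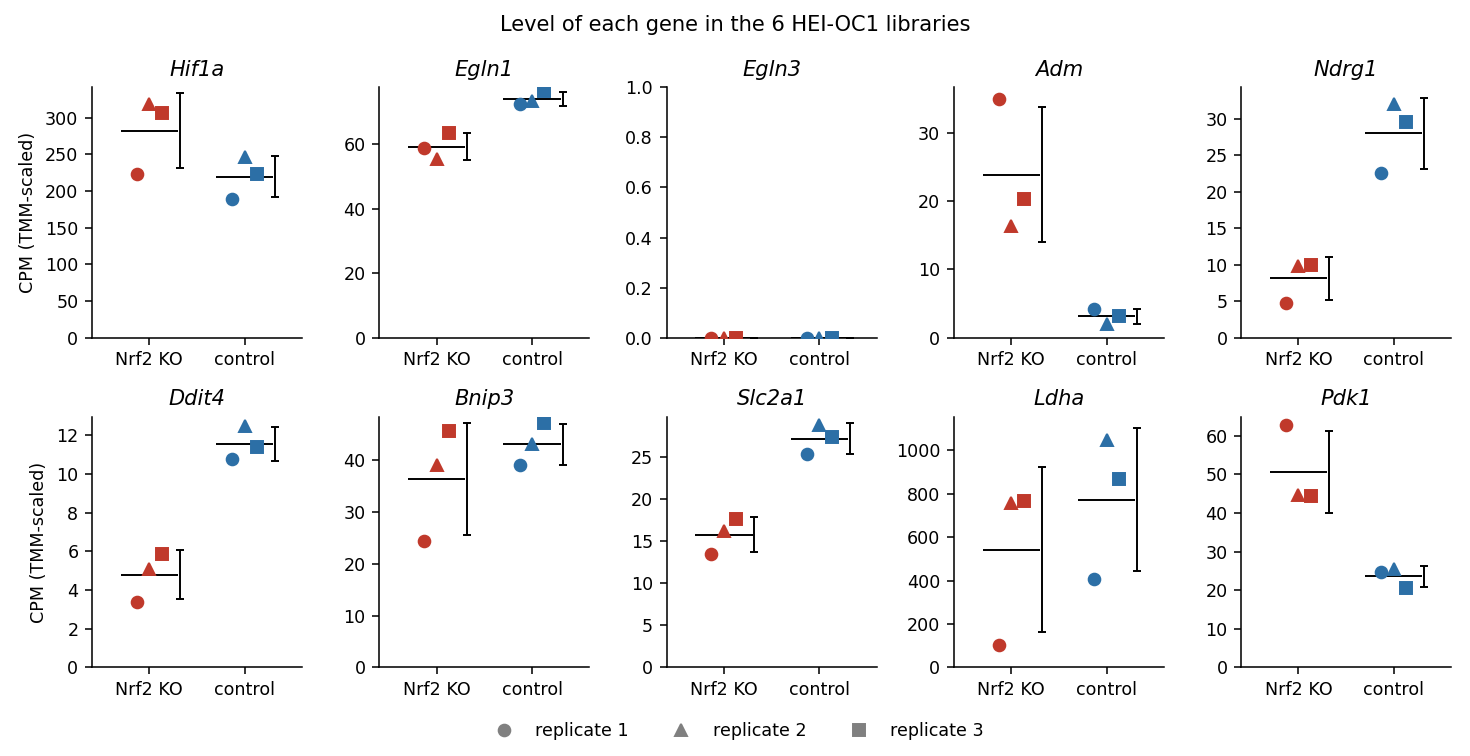
Level of each of the 10 genes in CPM after TMM scaling (vertical axis, from 0) in the 3 Nrf2 KO and 3 control libraries; lines are means and bars SD, and the symbol gives the replicate number. Adm and Pdk1 lie higher and Ndrg1, Ddit4 and Slc2a1 lower in every Nrf2 KO library, Egln3 has no counts, and Ldha is lowest in replicate 1 of each group.

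Hif1a, the oxygen-regulated alpha subunit, had 223, 319 and 306 CPM in the Nrf2 KO libraries, against 190, 246 and 224 CPM in the control. The ranges overlapped, as Nrf2 KO replicate 1 lay within the control range. The log2 fold change was 0.36 (SE 0.21) and Hif1a was not called with all 6 libraries. It was called higher without Nrf2 KO replicate 1 (log2 fold change 0.50) and without both replicate 1 libraries (0.41).

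Egln1, the main prolyl hydroxylase acting on HIF in most cells, had 58.7, 55.4 and 63.5 CPM in the Nrf2 KO libraries, against 72.3, 73.3 and 76.4 CPM in the control. Every Nrf2 KO library was below every control library, with a small log2 fold change of -0.32 (SE 0.13) that edgeR did not call. DESeq2, which called 19.9% of all genes, called it lower, as did edgeR without both replicate 1 libraries. Egln3, a hydroxylase that is itself a strong HIF target in many cells, had 0 counts in all 6 libraries. A count of 0 allows up to 3 counts, or between 0.0585 and 0.103 CPM by library before TMM scaling, which covers counting error only. Whether Egln3 reads were lost in alignment or counting was not tested, so this is a limit on what the table holds.

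Adm encodes adrenomedullin, a secreted vasodilator peptide and widely used hypoxia marker. It had 35.0, 16.3 and 20.3 CPM in the Nrf2 KO libraries, against 4.26, 2.02 and 3.20 CPM in the control. The lowest Nrf2 KO library was well above the highest control library, and replicate 1 was the highest of its group in both. The mean was 23.8 ± 9.85 CPM in Nrf2 KO and 3.16 ± 1.12 CPM in the control (SD, n = 3 each), a 7.54-fold difference (log2 fold change 2.91, SE 0.41) and the largest in size among the 9 genes. Adm is also made by endothelial cells. The 8 endothelial and pericyte markers summed to 23.9, 23.1 and 24.0 CPM in Nrf2 KO and 38.0, 40.1 and 42.7 CPM in the control. Kdr and Rgs5 had 0 counts in all libraries. Of the 4 tested markers 1 was higher (Erg) and 2 lower (Mcam and Des), named after their values were seen. With 1 library left out, Erg and Mcam kept their calls only without Nrf2 KO replicate 1, and Des in 2 of 6 fits. Which cells made Adm was not tested.

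Ndrg1, a stress-responsive gene of the NDRG family that rises with hypoxia and on differentiation, had 4.72, 9.77 and 9.96 CPM in the Nrf2 KO libraries, against 22.6, 32.0 and 29.5 CPM in the control. The groups were far apart, at 8.15 ± 2.97 CPM in Nrf2 KO and 28.0 ± 4.88 CPM in the control, a 3.43-fold lower level (log2 fold change -1.78, SE 0.33). Replicate 1 was the lowest of its group in both.

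Ddit4, also called REDD1, restrains the growth kinase mTORC1 under low oxygen and other stresses. It had 3.38, 5.11 and 5.88 CPM in the Nrf2 KO libraries, against 10.8, 12.5 and 11.4 CPM in the control, with every Nrf2 KO library below every control library. The log2 fold change was -1.27 (SE 0.25), a 2.41-fold lower level.

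Bnip3, a mitochondrial outer-membrane protein that promotes mitophagy, had 24.4, 39.0 and 45.5 CPM in the Nrf2 KO libraries, against 39.0, 43.0 and 47.0 CPM in the control. Replicates 2 and 3 of Nrf2 KO lay at or within the control range, and replicate 1 lay below it. The log2 fold change was -0.24 (SE 0.25), and -0.03 without Nrf2 KO replicate 1.

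Slc2a1 encodes GLUT1, the main basal glucose importer of many cells. It had 13.5, 16.2 and 17.6 CPM in the Nrf2 KO libraries, against 25.3, 28.9 and 27.4 CPM in the control. The groups did not overlap, with 15.8 ± 2.08 CPM in Nrf2 KO and 27.2 ± 1.79 CPM in the control, a 1.72-fold lower level (log2 fold change -0.79, SE 0.16). The call was also lost with no filter on low counts, where 4.83% of all genes were called.

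Pdk1, a kinase that switches off pyruvate dehydrogenase and so limits the entry of pyruvate into mitochondrial oxidation, went the other way from Slc2a1. It had 62.7, 44.6 and 44.3 CPM in the Nrf2 KO libraries, against 24.8, 25.4 and 20.5 CPM in the control, 2.14-fold higher (log2 fold change 1.10, SE 0.20). The lowest Nrf2 KO library was above the highest control library.

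Ldha, the lactate dehydrogenase subunit that favours lactate production, was the least repeatable of the 10. It had 105, 758 and 765 CPM in the Nrf2 KO libraries, against 406, 1046 and 867 CPM in the control. Nrf2 KO replicates 2 and 3 were 7.20 and 7.27 times replicate 1, and control replicates 2 and 3 were 2.58 and 2.14 times control replicate 1. The log2 fold change was -0.51 with an SE of 0.74, larger than the difference itself. It was -0.03 without Nrf2 KO replicate 1 and -0.85 with the replicate number as a block, and Ldha was called lower (-0.33) only without both replicate 1 libraries among the fits run. Ldha has near-identical processed copies in the genome, so its counts could be split in ways the sources used here do not describe.

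**Figure D2:**
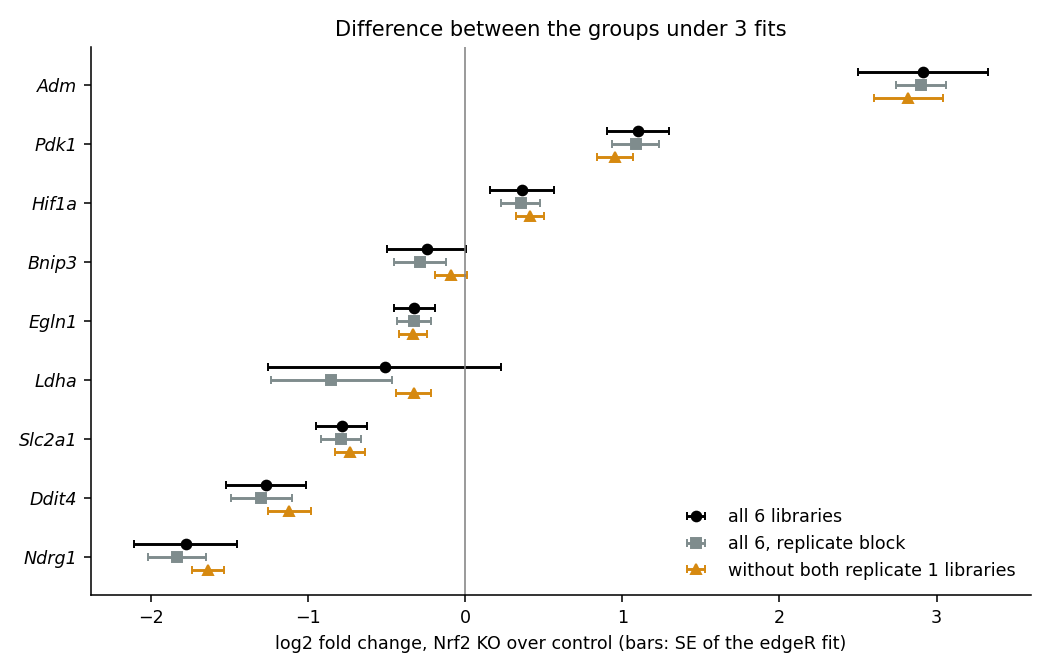
Log2 fold change of Nrf2 KO over control (horizontal axis) for the 9 tested genes, with bars for the SE of the edgeR fit, under the fit of all 6 libraries, the fit with the replicate number as a block, and the fit without both replicate 1 libraries. Adm (2.91) and Ndrg1 (-1.78) mark the ends, every gene keeps its sign in these 3 fits, and Ldha has the widest bar (SE 0.74).

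Read within replicate numbers, the difference in log2 CPM between Nrf2 KO and control kept its sign at all 3 numbers for each of the 9 genes. The share of all tested genes that did so was 60.8%. Nothing is read from that count, since the genes were chosen with this contrast known. For the 6 whose groups did not overlap, any pairing gives a constant sign. How numbers 2 and 3 match between the groups is also uncertain. For Adm it was 3.02, 2.98 and 2.65 at numbers 1, 2 and 3, and for Pdk1 it was 1.34, 0.81 and 1.11. For Ndrg1 it was -2.25, -1.71 and -1.56, for Ddit4 -1.66, -1.28 and -0.95, and for Slc2a1 -0.90, -0.83 and -0.64. For these 5 genes no number brought the difference under 0.64 in size. The differences were smaller for Egln1 (-0.30, -0.40 and -0.27) and Hif1a (0.24, 0.37 and 0.45). Number 1 carried most of the difference for Ldha (-1.95, -0.47 and -0.18) and Bnip3 (-0.68, -0.14 and -0.05).

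**Figure D3:**
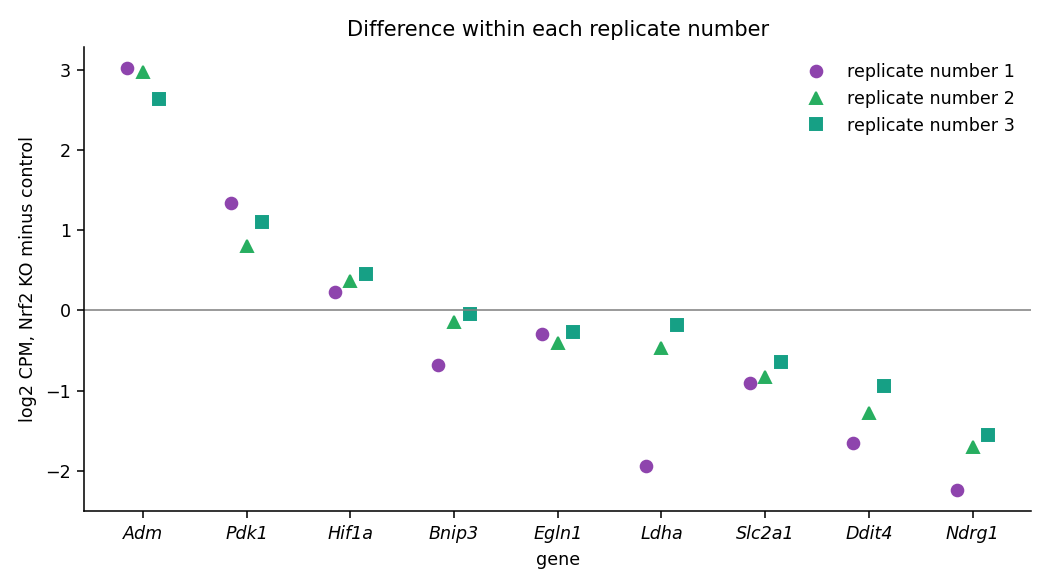
Difference in log2 CPM, Nrf2 KO minus control (vertical axis), for the 9 tested genes at each replicate number. Each gene stays on 1 side of 0, and the 3 points spread most for Ldha, where number 1 lies at -1.95.

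Levels between genes can be set side by side only per length, from the FPKM that the authors deposited as 1 value per group. Ldha was the highest, at 271 FPKM in the Nrf2 KO group and 398 FPKM in the control group. Hif1a followed, at 55.4 FPKM in Nrf2 KO and 43.4 FPKM in control. Adm stood at 13.0 FPKM in the Nrf2 KO group, between Bnip3 (18.1 FPKM) and Egln1 (12.1 FPKM). In the control group Adm was the lowest of the 9 genes with counts, at 1.72 FPKM, where Bnip3 had 21.8 FPKM and Egln1 15.3 FPKM. Ndrg1 had 2.29 FPKM in Nrf2 KO and 8.02 FPKM in control, and Ddit4 had 2.23 FPKM in Nrf2 KO and 5.48 FPKM in control, so they were the lowest in the Nrf2 KO group. Pdk1 lay above Slc2a1 in the Nrf2 KO group (9.37 and 4.97 FPKM) and under it in the control group (4.36 and 8.69 FPKM). Neighbours in this order have no error, because the authors' values carry no spread.

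Likeness to other genes was measured as the root mean square distance between log2 CPM profiles over the 6 libraries, each centred on its own mean. The candidates were 9592 genes with a mean of at least 5 CPM, leaving out the members and symbols that start with LOC or RGD. The nearest gene to Adm was the metallothionein gene Mt1, at 0.19, and to Ldha it was Prps1, a nucleotide precursor enzyme, at 0.11. No candidate came within 0.1 of either. Lbh was nearest to Ndrg1 (0.05), Rsl1d1l1 to Ddit4 (0.08), Guk1 to Slc2a1 (0.06) and Rbm48 to Pdk1 (0.07). The profiles of Egln1, Bnip3 and Hif1a were common ones, with 159, 104 and 235 genes within 0.1, and Cnot7, Pop5 and Mrrf nearest. Among the 9 themselves the closest pair was Slc2a1 and Egln1 (0.26) and the most distant Adm and Ndrg1 (2.49).

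The rest of the pathway was read from 9 lists holding 109 measured genes, 98 of them tested, of which 6 were higher and 9 lower by edgeR, adjusted over all tested genes. The share of each direction among all tested genes was 4.83% and 3.45%. With the replicate number as a block the counts were 11 and 11, where 18.3% of all genes were called. The lists' median log2 fold change was -0.11, against 0.04 over all tested genes. It was 0.02 without Nrf2 KO replicate 1, where that of all tested genes was -0.02. It lay between -0.06 and -0.02 without Nrf2 KO replicate 2 or 3 or control replicate 1 or 2. Without control replicate 3 it was -0.13, against 0.04 over all tested genes, and with the block -0.15, against -0.001. Its sign thus turned only without Nrf2 KO replicate 1 among the fits run, and its distance from all genes varied. Of these 15 calls, 3 (Arnt2, Rora and Slc2a4) passed whichever of the 6 libraries was omitted, and 9 passed only without Nrf2 KO replicate 1.

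Of 12 tested genes for HIF subunits, hydroxylases and their partners, 0 were higher and 2 lower by edgeR, with a median log2 fold change of -0.13. At an unadjusted p under 0.05 the counts were 0 and 3, as with DESeq2. Arnt2, a neural and developmental relative of the beta subunit Arnt, fell to 2.27, 2.50 and 2.36 CPM in the Nrf2 KO libraries, against 18.7, 17.1 and 16.2 CPM in the control (log2 fold change -2.87, SE 0.18, adjusted p = 0.00158 by edgeR). Cited2, a HIF target that competes with HIF for its coactivators CBP and p300, had 22.2, 39.2 and 43.9 CPM in Nrf2 KO and 77.6, 107 and 97.8 CPM in the control (-1.42, SE 0.29, adjusted p = 0.0344 by edgeR). The Cited2 call was lost without any library other than Nrf2 KO replicate 1. The alpha subunit genes Epas1 and Hif3a had too few counts to test.

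Other HIF targets moved in both directions. Of 26 tested, 4 were higher and 1 lower by edgeR, with a median log2 fold change of 0.33. The counts were 6 and 1 with the replicate block and 8 and 2 with DESeq2, where 18.3% and 19.9% of all genes were called. Rora, a nuclear receptor, rose to 14.7, 17.6 and 19.1 CPM in the Nrf2 KO libraries, against 2.86, 3.24 and 2.48 CPM in the control (log2 fold change 2.58, SE 0.21, adjusted p = 0.00255 by edgeR). Mxi1, a MYC antagonist, fell to 15.6, 24.4 and 24.6 CPM in Nrf2 KO, against 44.7, 48.1 and 49.6 CPM in the control (-1.14, SE 0.21, adjusted p = 0.0273 by edgeR). Plod1 and Ak4, named after their values were seen, were also called higher, and both calls were lost with no filter on low counts. Of the 5 calls in this list, 4 were lost without any library other than Nrf2 KO replicate 1, and Rora kept its call. Without Nrf2 KO replicate 1, where 30.2% of all genes were called, 11 were higher and 4 lower. The hypoxia markers Vegfa (log2 fold change 0.46, SE 0.27) and Car9 (0.37, SE 0.14) were not called, and were also picked with their values known.

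Among 12 tested genes of glucose and lactate transport other than Slc2a1, 1 was higher and 3 lower by edgeR (3 and 3 with the replicate block), with a median log2 fold change of -0.06. That median had no stable sign: it was -0.25 with the block and 0.08 with no filter on low counts, where 13 genes were tested. It was -0.01, -0.29 and -0.31 without Nrf2 KO replicates 1, 2 and 3, and -0.27, 0.02 and -0.01 without control replicates 1, 2 and 3. Slc2a4, the insulin-responsive transporter GLUT4, fell to 1.15, 0.774 and 0.802 CPM in the Nrf2 KO libraries, against 10.1, 9.04 and 8.87 CPM in the control (log2 fold change -3.37, SE 0.26, adjusted p = 0.00232 by edgeR). Txnip, an arrestin that removes glucose transporters from the membrane, had 18.7, 21.1 and 20.5 CPM in Nrf2 KO and 36.7, 34.8 and 36.7 CPM in the control (-0.84, SE 0.14, adjusted p = 0.0169 by edgeR). The third that fell was the transporter Slc2a12 (-1.17, SE 0.23), outside the naming rule. Txnip and Slc2a12 lost their calls without any library other than Nrf2 KO replicate 1. Slc16a7, the monocarboxylate transporter MCT2, rose to 43.4, 51 and 50.8 CPM in Nrf2 KO, against 19.1, 23.2 and 21.2 CPM in the control (1.19, SE 0.15, adjusted p = 0.00841 by edgeR), a call lost without control replicate 1 or 3.

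Of 11 tested genes for pyruvate entry into mitochondria, 1 was lower and 0 higher by edgeR, with a median log2 fold change of -0.24 (-0.15 without Nrf2 KO replicate 1). At an unadjusted p under 0.05 the counts were the same, as with DESeq2. The lower gene was Pdk2, a paralog of Pdk1, with 10.9, 12.3 and 12.5 CPM in the Nrf2 KO libraries, against 28.0, 29.7 and 31.0 CPM in the control (log2 fold change -1.31, SE 0.15, adjusted p = 0.00565 by edgeR). Pdk1 and Pdk2 thus lay on opposite sides, and the Pdk2 call was lost without control replicate 3. Of the 3 NDRG paralogs, Ndrg3 was lower like Ndrg1, at 20.5, 15.8 and 17.4 CPM in Nrf2 KO and 42.0, 34.5 and 38.0 CPM in the control (-1.09, SE 0.17, adjusted p = 0.0145 by edgeR), a call kept only without Nrf2 KO replicate 1 among the fits with a library left out.

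Apart from Ldha, itself not called, 16 glycolytic enzymes were tested and none was called by edgeR. At an unadjusted p under 0.05, 2 of the 16 were higher and 3 lower, with a median log2 fold change of -0.24. DESeq2 called 1 higher and 0 lower. With the replicate block 1 was lower (Pfkp, named after its value was seen). Without Nrf2 KO replicate 1, where 30.2% of all genes were called, the counts were 2 higher and 0 lower. The median turned to 0.09 without Nrf2 KO replicate 1, with 9 of 16 enzymes above 0. It was -0.54 and -0.50 without Nrf2 KO replicates 2 and 3, and -0.52, -0.03 and -0.17 without control replicates 1, 2 and 3. Gapdh, the most abundant by CPM, had 1680, 2647 and 2808 CPM in the Nrf2 KO libraries, against 4245, 3289 and 3761 CPM in the control (log2 fold change -0.66, SE 0.27, adjusted p = 0.189 by edgeR). The 16 enzymes summed to 3841, 8943 and 9048 CPM in Nrf2 KO and 9303, 10862 and 10693 CPM in the control, so Nrf2 KO replicate 1 had the lowest sum. In replicate 1 of Nrf2 KO 14 of the 16 were below replicates 2 and 3 of their group, and in replicate 1 of the control 11 were, against 47.6% and 43.8% of all tested genes. Ldha was among the most shifted: replicate 1 was 2.85 below the mean of replicates 2 and 3 on the log2 scale in Nrf2 KO and 1.23 below it in the control. Several of these enzymes have near-identical processed copies, so their counts are uncertain in the same way as those of Ldha.

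**Figure D4:**
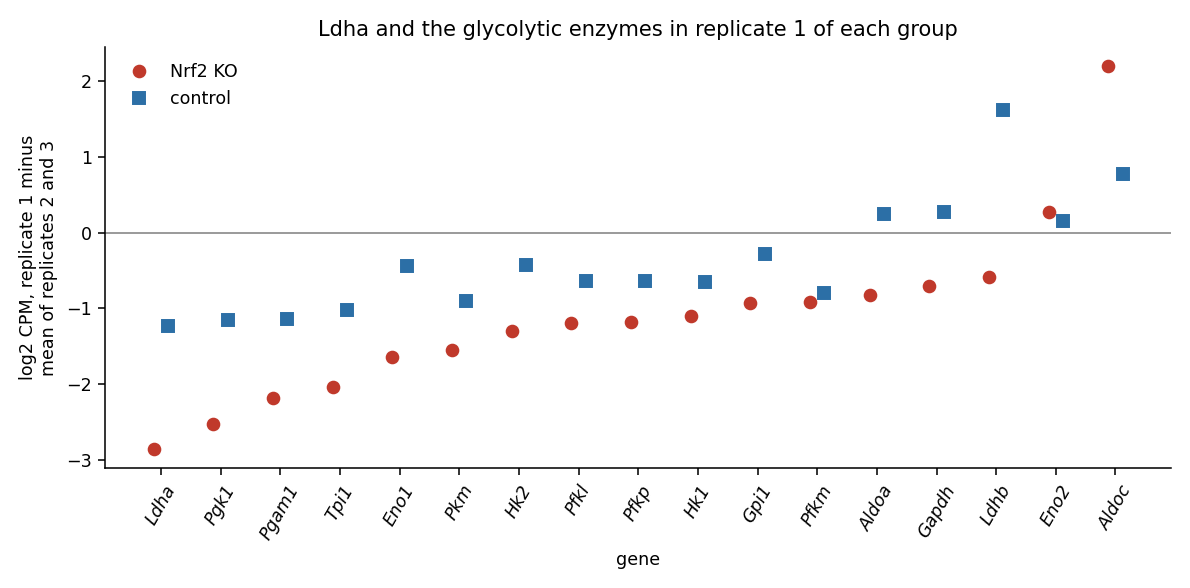
Log2 CPM of replicate 1 minus the mean of replicates 2 and 3 of the same group (vertical axis) for Ldha and 16 glycolytic enzymes, Nrf2 KO circles and control squares. Ldha lies at -2.85 in Nrf2 KO and -1.23 in control, while Aldoc lies above 0 in both.

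The adrenomedullin receptor genes did not follow Adm: of 4 tested, 0 were called by edgeR and 1 was lower at an unadjusted p under 0.05, as with DESeq2. The receptor Calcrl had 20.8, 51.1 and 48.3 CPM in the Nrf2 KO libraries, against 46.1, 66.7 and 61.2 CPM in the control (log2 fold change -0.53, SE 0.36, adjusted p = 0.429 by edgeR). Of 7 genes of the ATF4 stress response, 0 were higher and 1 lower by edgeR, and 1 and 2 with the replicate block or DESeq2 (1 and 2 also at an unadjusted p under 0.05). Their median log2 fold change was 0.39, with 5 of the 7 above 0, against 0.04 over all tested genes. Atf3 fell to 0.383, 0.468 and 0.681 CPM in Nrf2 KO, against 3.39, 2.23 and 3.20 CPM in the control (-2.51, SE 0.34, adjusted p = 0.00989 by edgeR), a call lost without Nrf2 KO replicate 2 or control replicate 1 or 3. Of 7 glucocorticoid-responsive genes, 1 was higher, the kinase Sgk1, at 24.9, 26.7 and 25.4 CPM in Nrf2 KO and 15.2, 13.8 and 16.1 CPM in the control (0.77, SE 0.15, adjusted p = 0.0267 by edgeR), a call kept only without Nrf2 KO replicate 1 among the fits with a library left out. Ddit4, which both responses can induce, was lower.

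**Figure D5:**
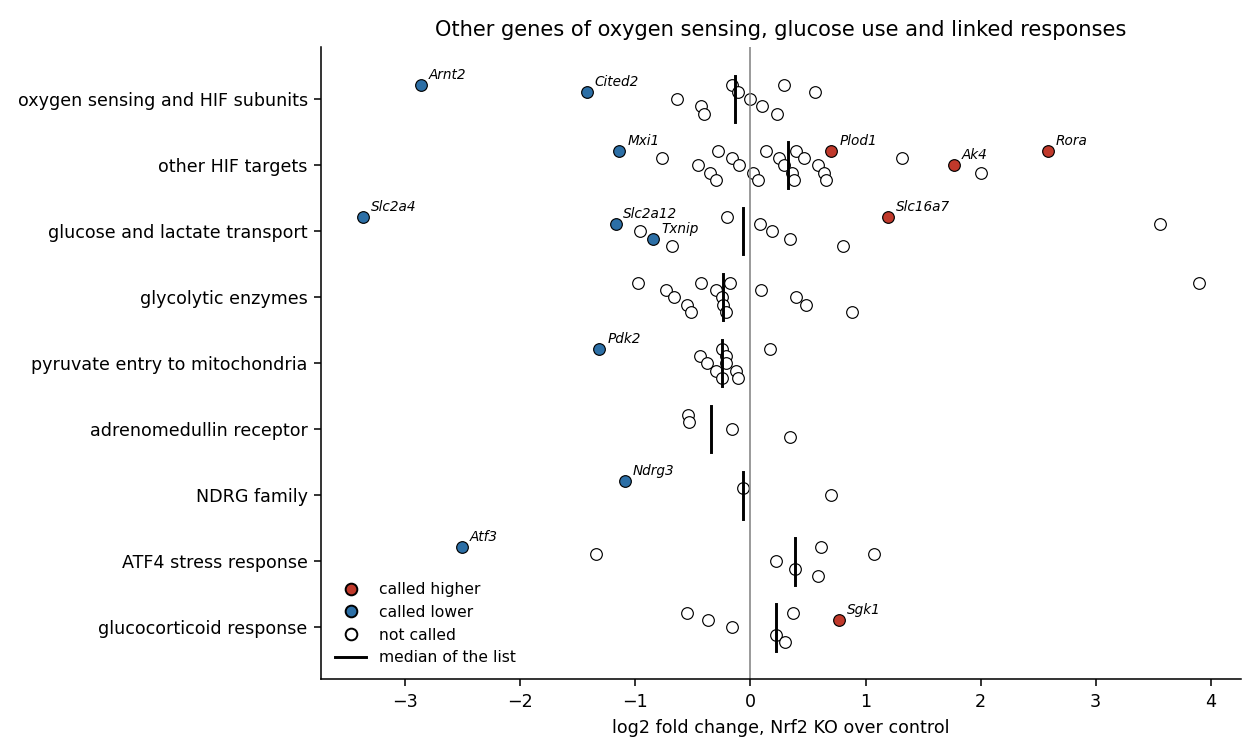
Log2 fold change of Nrf2 KO over control (horizontal axis) for the tested genes of 9 lists (rows), with called genes filled and named and each list's median over all its tested genes as a bar; 1 tested gene of the other HIF targets is not drawn. Called genes lie on both sides of 0 within the lists of other HIF targets and of glucose and lactate transport, and no glycolytic enzyme is called.

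Fibroblast markers moved with the groups in these libraries. The 8 markers summed to 4086, 6054 and 5680 CPM in Nrf2 KO, against 1614, 2041 and 1969 CPM in the control. By edgeR 5 of the 7 tested were higher and 0 lower, against 4.83% and 3.45% of all tested genes. With 1 library left out, 4 or 5 were higher. Of the other marker lists, 3 of 6 tested supporting and prosensory markers were higher, 1 of 2 hair cell markers (Myo7a) was higher and the 1 tested epithelial marker was higher, while 1 of 2 leukocyte markers and 1 of 4 neuron and glia markers were lower. The neuron and glia call was kept only without Nrf2 KO replicate 1 among the fits with a library left out. Summed hair cell markers ranged from 62.5 to 76.5 CPM in Nrf2 KO and from 33.0 to 45.0 CPM in the control, and supporting and prosensory markers from 429 to 598 CPM in Nrf2 KO and from 344 to 410 CPM in the control. Epithelial, leukocyte and neuron and glia markers were scarce, the highest sum being 26.2 CPM for neuron and glia markers in a control library, and Krt8, Krt18, Krt19, Tyrobp and Map2 had 0 counts in all. Their part in the differences of the 10 genes was not tested. In bulk libraries, fewer cells of a type and less RNA per cell cannot be told apart.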

How the data were processed

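RNA-seq counts of 6 libraries were used. Tools named in the submitters' processing notes are HISAT2, fastp, FastQC and DESeq2 (1.34.0), without their roles, and hg18 is the build listed there. The sources used here name no counter, strand setting or annotation. The deposited counts are whole numbers per gene symbol, not normalised, and the authors' deposited FPKM are 1 value per group. The symbols include 1892 names used for rat genes (RGD, RT1 or Olr), against a mouse line, and the effect on levels was not tested. With no strand setting stated, reads of a gene and of its antisense partner cannot be told apart.

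Counts were tested in R 4.3.3 with edgeR 4.0.16: filterByExpr by group (minimum count 10, minimum total 15), TMM scaling, and the robust quasi-likelihood test, two-sided, with Benjamini-Hochberg adjustment over all tested genes at 0.05. Log2 CPM had a prior count of 2. On simulated data of this comparison (14618 genes, 50 changed at each fold), edgeR recovered 35 genes at a fold of 4, 25 at 0.25, 3 at 2 and 0 at 0.5, with 7 false calls, so a gene not called may still differ by a fold of 2. DESeq2 1.42.0, other scalings and filters, the replicate block and left-out libraries were alternatives. No library pair was a duplicate: chi-square over degrees of freedom was at least 14.3 for pairs within a group.

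Replicate numbers were checked for pairing: deviations from the group means correlated across genes at 0.754, 0.696 and 0.310 for numbers 1, 2 and 3, all above 0.1. Unmatched numbers also passed 0.1: Nrf2 KO 3 with control 2 (0.539, above 0.310 with control 3) and Nrf2 KO 2 with control 3 (0.278). Each unmatched pair with a number 1 library was negative. The check thus set number 1 apart but cannot tell how numbers 2 and 3 pair. The matched numbers passed the limit of 0.1, from the data since no label says that they pair. The replicate block was therefore run, as an alternative only. Values are from the fit with no block unless stated.

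The members, lists and tests were chosen with earlier results of these data known. Named were the members, Nfe2l2, up to 3 called genes with the smallest p per list or otherwise the gene with the highest CPM, and the nearest profile to each member. Of 171 list genes all were in the table, 3 under an older name. A gene that the rule names among the other HIF targets is not reported here, though the counts include it.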

Additional observations from a re-analysis of the deposited data

How the results depend on the processing

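Over 14 alternatives the log2 fold changes of the 9 tested members, of Nfe2l2 and of the genes named by rule from the pathway lists kept their sign. The genes with the nearest profiles were not followed over these alternatives. Medians of lists did not. Those of the glycolytic enzymes (0.09) and of all other pathway lists (0.02) turned positive without Nrf2 KO replicate 1. That of glucose and lactate transport did so with no filter (0.08, over 13 genes) or without control replicate 2 (0.02). Without Nrf2 KO replicates 2 and 3 and control replicate 1 the NDRG family median turned to 0.17, 0.15 and 0.05. Medians of the leukocyte and of the neuron and glia markers also changed sign in some fits. The median of all tested genes turned to -0.01 with upper-quartile scaling and to -0.02 without Nrf2 KO replicate 1. It was just under 0 with the replicate block or without both replicate 1 libraries. The counts of genes called, with all 6 libraries 706 higher and 505 lower, were 1598 and 1318 with DESeq2, 1520 and 1158 with the replicate block, and 3540 and 3253 without both replicate 1 libraries. With 1 library left out they lay between 139 and 2323 higher and between 57 and 2162 lower. Of the 10 genes, 2 higher and 3 lower calls became 0 to 3 higher and 0 to 3 lower with 1 library left out, and without both replicate 1 libraries 5 were lower. The replicate block changed no call among the 9 tested members or Nfe2l2. Over the other pathway lists, 6 higher and 9 lower became 14 higher with DESeq2, 11 higher with the block, 28 higher and 32 lower without both replicate 1 libraries, and 1 to 21 higher and 2 to 19 lower with 1 library left out. The cause was not tested. No scaling moved the median of all genes by over 0.1 (log2).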
